A study of Mus musculus with 4 samples.

Results

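The interleukin-1 family of signals and receptors was examined in back skin of K5-IKKbeta transgenic mice and of wild type mice. Members were all probe sets of the array whose only gene symbol in the platform annotation was Il1a, Il1b, Il1rn, Il18, Il33, Il1r1, Il1r2, Il1rap, Il1rl1 or Il18bp. There were 16 such probe sets among the 45101 of the array, for 9 of the 10 genes, out of 18194 genes named on the array. Il1rap had 5 of them, Il1rn 3, Il1r1 2 and the others 1 each, while Il1rl1 was named by none alone and was not analysed here. The K5-IKKbeta group (2 arrays) carried the gene of IKKbeta, the kinase that switches on the transcription factor NF-kB, under keratin K5 regulatory elements, which are active in basal keratinocytes of the epidermis and the hair follicle. The wild type group (WT, 2 arrays), labelled control, lacked the transgene. Mice of both groups were males aged 32 days of a C57BL6 X DBA2 background, and each array held RNA pooled from 3 mice of 1 genotype. The spread between arrays is therefore one between pools, and the number of arrays limits the precision.

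Interleukin-1 alpha (Il1a) and interleukin-1 beta (Il1b) are agonists that bind the receptor Il1r1, which then recruits the accessory protein Il1rap and signals through MyD88 to NF-kB. The pathway is held back by Il1rn, an antagonist that occupies the receptor without signalling, and by Il1r2, a decoy receptor that binds agonist and does not signal. Keratinocytes store interleukin-1 alpha and release it on injury, and they also make interleukin-18, interleukin-33 and intracellular forms of the antagonist.

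Values are log2 expression values made by RMA, a method that corrects background, normalizes arrays to each other and summarizes the probes of each probe set. Array medians over all probe sets lay at 6.95 and 6.96 in K5-IKKbeta skin and at 6.91 and 6.92 in WT skin. Keratin genes of basal keratinocytes, Krt5 and Krt14, and the dermal collagen gene Col1a1 were near the top of the range on all 4 arrays, with lowest values of 13.00, 13.07 and 14.20. Of 5 probe sets of Ikbkb, the gene of the transgene, 3 were higher in K5-IKKbeta skin. The largest of these differences was a log2 fold change of 2.24 ± 0.10 (SE) for probe set 1454184_a_at (limma adjusted p = 0.000101). Log2 fold changes are K5-IKKbeta minus WT throughout, and a difference was called when its p-value from limma, adjusted by Benjamini-Hochberg over all 45101 probe sets, was under 0.05.

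Most interleukin-1 family genes did not pass the threshold between the genotypes, and the antagonist Il1rn fell on all of its probe sets. Of the 16 probe sets, 3 were lower in K5-IKKbeta skin, all of Il1rn, and 2 were higher, 1 of Il1rap and the one of Il18bp. Over the whole array 16.3% of probe sets were called, 10.4% higher and 5.88% lower. No member differed 2-fold or more, beside 5.07% of all probe sets, and with 16 probe sets this is near that share. The median log2 fold change of the 16 probe sets was 0.27, against 0.0012 for the whole array. An unadjusted p under 0.05 was reached by 10 of the 16, beside 29.1% of all probe sets. Taking the brightest probe set of each gene, 2 of 9 genes were higher and 1 was lower, beside 20.9% of the 18194 genes called, 14.3% higher and 6.64% lower. Fitted on the probe sets above the 40th percentile of mean value, 5 of 12 members were called, beside 17.5% of those probe sets higher and 9.71% lower. Above the 60th percentile 4 of 7 were called, beside 21.6% higher and 11.3% lower. With 1 probe set per gene, the lower filter and p adjusted over genes, 3 of 9 were called, beside 23.4% higher and 10.6% lower. With arrays normalized again or centred on their medians, 1 probe set was higher and 3 were lower. All 5 calls were lost without WT array 1 and without WT array 2, and the 5 probe sets kept their direction in every fit that left out 1 array.

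**Figure D1:**
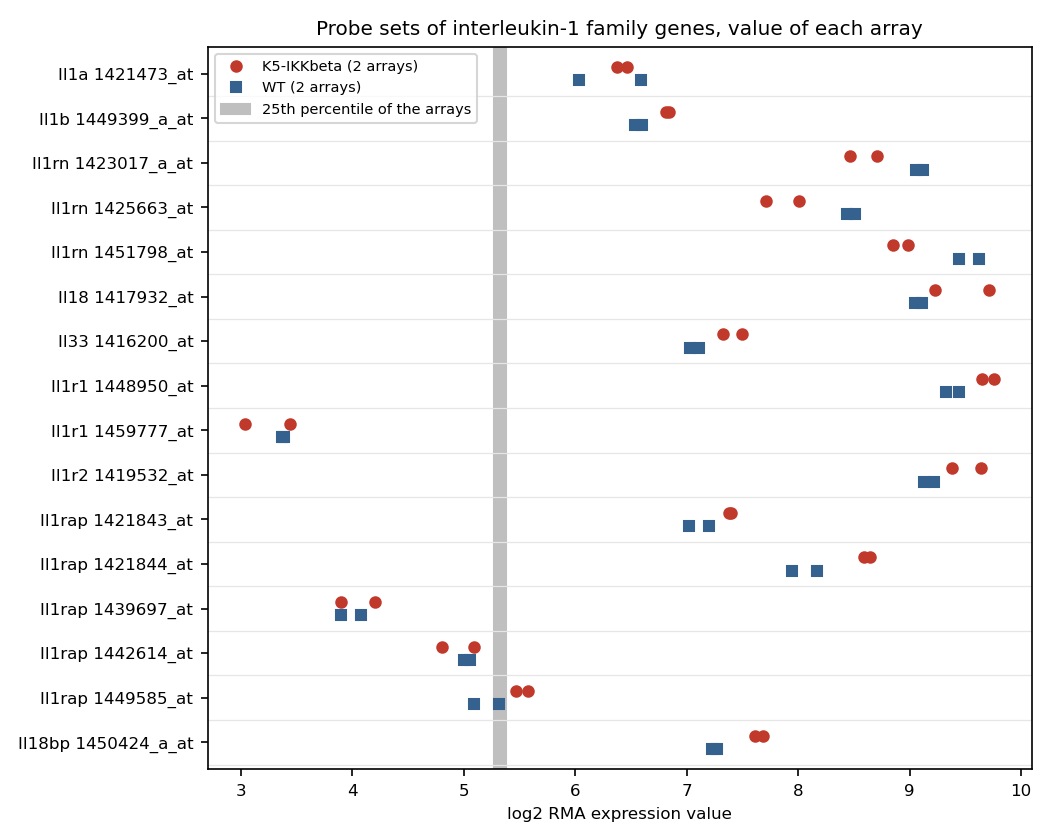
Log2 RMA value of each array for the 16 probe sets of interleukin-1 family genes, with K5-IKKbeta arrays as red circles above WT arrays as blue squares; the grey band spans the 25th percentiles of the 4 arrays (5.27 to 5.38). The 3 Il1rn probe sets have both red points left of both blue points, and 12 of the 16 probe sets lie right of the band on all arrays.

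Distance from background was taken as the value of a probe set less the 25th percentile of its array, since detection calls were not used here. Of the 16 probe sets, 12 lay above this floor on all 4 arrays, 3 lay below it on all 4, and 1 was split. The 3 dim ones were 1459777_at of Il1r1 and 1439697_at and 1442614_at of Il1rap. Their log2 values lay 0.26 to 2.23 below the floor, and no expression was measured with them. Each of the 9 genes had at least 1 probe set above the floor on every array. Il1a and Il1b were the agonists nearest to it, at 1.11 and 1.10 above the floor for Il1a in K5-IKKbeta skin against 0.66 and 1.28 in WT skin, and at 1.46 and 1.57 for Il1b in K5-IKKbeta skin against 1.16 and 1.29 in WT skin. Il1r1, Il1r2 and Il18 stood far above it, between 3.73 and 4.41 on all arrays.

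The antagonist Il1rn was measured by 3 probe sets, all well above background. Probe set 1451798_at, the brightest, read 8.98 and 8.85 in K5-IKKbeta skin, against 9.44 and 9.62 in WT skin. Probe set 1425663_at read 8.01 and 7.71 in K5-IKKbeta skin, against 8.51 and 8.44 in WT skin. Probe set 1423017_a_at read 8.71 and 8.46 in K5-IKKbeta skin, against 9.06 and 9.12 in WT skin. Every K5-IKKbeta array lay below both WT arrays for each of them, with gaps of 0.35 to 0.46 between the groups. The log2 fold changes were -0.61 ± 0.12, -0.62 ± 0.13 and -0.51 ± 0.13 (SE), or 1.53-fold, 1.53-fold and 1.42-fold lower (adjusted p = 0.0182, 0.0256 and 0.0399). In size the fall of 1425663_at exceeded the differences of 88.1% of all probe sets. The 3 probe sets may share target sequence and are not independent measurements, and which of the secreted and intracellular forms each detects was not analysed here. With less RNA of a gene in bulk skin, fewer cells that make it and less RNA per cell cannot be told apart. The call was also lost without K5-IKKbeta array 2, where adjusted p was 0.0504, 0.0609 and 0.104 in the same order.

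RefSeq (GRCm38.p6) gives Il1rn 3 start sites, the first well upstream of the other two, and the promoters of the first and the second are shown because this is the one member gene called lower. Each sequence runs from 250 bases before to 50 bases after the start site, 5′ to 3′ along the gene; the first lies at chr2:24336610-24336909, plus strand, and the second at chr2:24345041-24345340, plus strand. Capitals mark matches to the AP-1 motif TGANTCA, searched on both strands together with the motif of NF-kB (the kappaB consensus), the interferon-stimulated response element and the STAT motif TTCNNNGAA.
Il1rn, first start: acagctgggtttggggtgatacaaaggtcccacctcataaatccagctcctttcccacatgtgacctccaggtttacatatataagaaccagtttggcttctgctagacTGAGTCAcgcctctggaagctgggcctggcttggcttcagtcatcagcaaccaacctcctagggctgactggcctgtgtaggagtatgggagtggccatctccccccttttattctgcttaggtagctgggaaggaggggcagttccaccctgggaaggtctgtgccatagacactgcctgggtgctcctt
Il1rn, second start: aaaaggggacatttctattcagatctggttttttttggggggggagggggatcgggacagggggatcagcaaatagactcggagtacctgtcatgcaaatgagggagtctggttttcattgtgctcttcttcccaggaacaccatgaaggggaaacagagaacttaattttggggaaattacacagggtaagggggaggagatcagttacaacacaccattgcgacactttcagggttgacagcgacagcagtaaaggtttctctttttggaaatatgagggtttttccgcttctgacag
The AP-1 match of the first start begins at position -141 from the start site, and the second window held no match. Of 32851 promoter windows of the same length, 7.81% held the AP-1 motif, 4.51% the kappaB consensus, 3.44% the interferon element and 8.30% the STAT motif. A match is a description of letters and not a binding site.

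**Figure D2:**
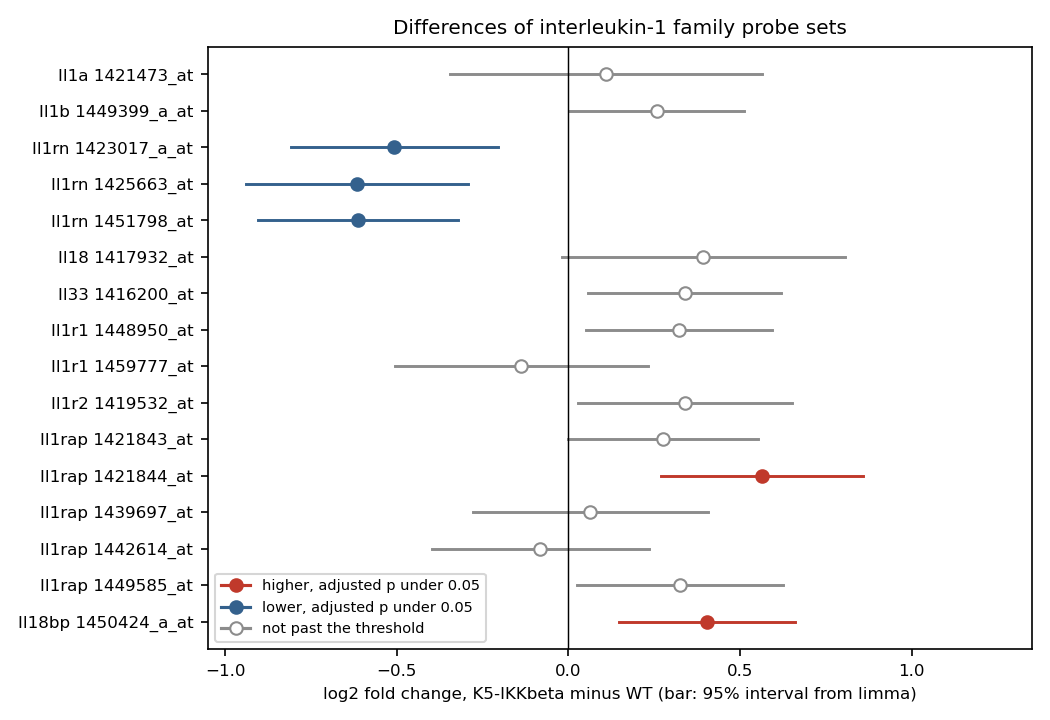
Log2 fold change (K5-IKKbeta minus WT, x axis) with its 95% interval from limma for each of the 16 probe sets. The 3 Il1rn probe sets lie between -0.62 and -0.51, and the 2 called higher, of Il1rap and Il18bp, lie at 0.56 and 0.40.

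The agonists themselves did not pass the threshold. Il1a read 6.47 and 6.38 in K5-IKKbeta skin, against 6.03 and 6.59 in WT skin. The WT pools enclosed both K5-IKKbeta values, so the groups overlapped, and the WT pools differed from each other by 0.56. The log2 fold change was 0.11 ± 0.19 (SE), with a 95% interval of -0.34 to 0.56 (adjusted p = 0.774), which leaves room for a ratio between 0.787 and 1.48. Without WT array 1 the value was -0.17. Il1b read 6.81 and 6.84 in K5-IKKbeta skin, against 6.54 and 6.60 in WT skin. The groups did not overlap, but the difference was small, at 0.26 ± 0.11 (SE, 95% interval 0.0026 to 0.51, adjusted p = 0.168). A rise of Il1b above 1.43-fold lies outside this interval.

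Agonist and antagonist were also compared within each array, as the log2 value of the agonist minus that of Il1rn. Because probe sets differ in how strongly they bind, only the change of this value between genotypes can be read and not its level. For Il1a it was -2.52 and -2.47 in K5-IKKbeta skin, against -3.41 and -3.03 in WT skin, a shift of 0.72 or 1.65-fold. For Il1b it was -2.17 and -2.01 in K5-IKKbeta skin, against -2.90 and -3.02 in WT skin, a shift of 0.87 or 1.83-fold. Both K5-IKKbeta arrays lay above both WT arrays in each case, and the exact permutation test gave p = 0.333 (two-sided), the smallest that 2 arrays against 2 allow. Of these shifts 0.61 came from Il1rn, whose own difference is reported above.

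**Figure D3:**
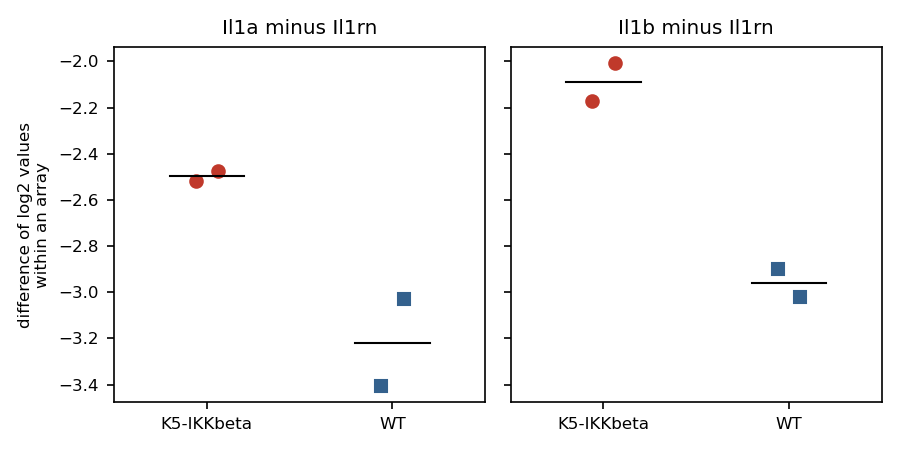
Difference of log2 values within an array (y axis), Il1a minus Il1rn and Il1b minus Il1rn, for the K5-IKKbeta arrays (red circles) and the WT arrays (blue squares), with group means as lines. Both red points lie above both blue points in each panel, by 0.72 for Il1a and 0.87 for Il1b between the means.

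Interleukin-18 is made as a precursor that caspase-1 cuts, and Il18bp is the soluble protein that binds the mature cytokine and neutralizes it. Il18 read 9.71 and 9.23 in K5-IKKbeta skin, against 9.11 and 9.05 in WT skin. The K5-IKKbeta pools differed from each other by 0.49, more than the gap of 0.12 between the groups, and the log2 fold change of 0.39 ± 0.17 (SE) was not past the threshold (adjusted p = 0.192). It passed without K5-IKKbeta array 2 (0.64, adjusted p = 0.0225). Il18bp read 7.68 and 7.61 in K5-IKKbeta skin, against 7.27 and 7.22 in WT skin, a 1.32-fold rise at the edge of the threshold (0.40 ± 0.11, SE, adjusted p = 0.0495). The groups were separate for Il18bp, with a gap of 0.34, but the call was lost in each fit that left out 1 array (adjusted p = 0.0722 to 0.274), after another quantile normalization (0.34, adjusted p = 0.0733) and with arrays centred on their medians (0.36, adjusted p = 0.0674).

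Interleukin-33 is a nuclear cytokine that epithelial cells release when damaged and that signals through Il1rl1 and Il1rap. Il33 read 7.32 and 7.50 in K5-IKKbeta skin, against 7.11 and 7.03 in WT skin. The groups did not overlap, and the log2 fold change of 0.34 ± 0.12 (SE, 95% interval 0.06 to 0.62) was not past the threshold (adjusted p = 0.109).

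Among the receptors of the 10 member genes, the accessory protein Il1rap alone had a call, on 1 of its 5 probe sets. Il1rap 1421844_at read 8.59 and 8.64 in K5-IKKbeta skin, against 7.94 and 8.17 in WT skin, a 1.48-fold rise (0.56 ± 0.12, SE, adjusted p = 0.025). Its call was lost without K5-IKKbeta array 2 as well (0.54, adjusted p = 0.0611). No other probe set of this gene was called. The other one above the floor on all arrays, 1421843_at, had a log2 fold change of 0.28 (adjusted p = 0.173). For 1449585_at the log2 fold change was 0.33 (adjusted p = 0.143). Both of its WT arrays lay below the floor, and against the floor its difference is a lower bound of 0.18. The 2 dim ones had 0.064 and -0.082, which are not measurements of expression. Averaged over its 5 probe sets Il1rap was not past the threshold (0.23 ± 0.10, SE, adjusted p = 0.153 over genes). This average includes the 2 dim ones, so it is no test of the brighter ones.

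The Il1rap promoter is shown as that of the member receptor with a call, and the one of Il18bp as the other gene called higher. They lie at chr16:26581455-26581754, plus strand, and chr7:102018183-102018482, minus strand (GRCm38.p6, RefSeq), and capitals mark the interferon-stimulated response element.
Il1rap: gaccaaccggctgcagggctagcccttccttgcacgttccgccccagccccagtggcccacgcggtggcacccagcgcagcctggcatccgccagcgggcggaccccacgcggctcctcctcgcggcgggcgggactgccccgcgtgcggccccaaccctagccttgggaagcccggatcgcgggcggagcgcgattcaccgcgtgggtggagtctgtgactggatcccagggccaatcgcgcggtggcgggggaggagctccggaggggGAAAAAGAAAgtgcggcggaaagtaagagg
Il18bp: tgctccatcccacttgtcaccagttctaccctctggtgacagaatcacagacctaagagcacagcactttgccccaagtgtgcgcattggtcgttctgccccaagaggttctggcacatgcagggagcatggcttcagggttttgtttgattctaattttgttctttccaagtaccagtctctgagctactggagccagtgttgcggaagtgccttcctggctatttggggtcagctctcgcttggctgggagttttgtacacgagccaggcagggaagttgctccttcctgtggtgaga
The match in Il1rap begins 21 bases into the transcript, and the Il18bp window held no match to the 4 motifs. Over all 15 windows of the 10 genes, the AP-1 motif was found in 2 (Il1a and Il1rn) and each other motif in 1, the kappaB consensus in an Il1r1 window and the STAT motif in that of Il1r2.

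The signalling receptor Il1r1 and the decoy Il1r2 had similar small differences. Il1r1 (1448950_at) read 9.76 and 9.65 in K5-IKKbeta skin, against 9.44 and 9.33 in WT skin, with a log2 fold change of 0.32 ± 0.11 (SE, adjusted p = 0.114). Il1r2 read 9.64 and 9.38 in K5-IKKbeta skin, against 9.22 and 9.13 in WT skin, with a log2 fold change of 0.34 ± 0.13 (SE, adjusted p = 0.141). Neither passed the threshold, and both had separate groups. Over all 16 probe sets the groups were separate for 12, with K5-IKKbeta higher in 9 and lower in 3, beside 56.1% of all probe sets separate, 30.3% higher and 25.8% lower. By the brightest probe set, 7 of 9 genes were higher without overlap, beside 37.0% of all genes.

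The other genes of the family were read from fixed lists of ligands and receptors, taking the brightest probe set of each gene. Il1f6, Il1f8 and Il1f9, which encode the agonists also called interleukin-36 alpha, beta and gamma, were higher in K5-IKKbeta skin, and Il1f10, which encodes interleukin-38, was lower. Il1f6 read 8.09 and 7.90 in K5-IKKbeta skin, against 6.90 and 6.91 in WT skin, a 2.13-fold rise (1.09 ± 0.12, SE, adjusted p = 0.00186). Il1f9 read 8.62 and 8.58 in K5-IKKbeta skin, against 7.72 and 7.53 in WT skin, a 1.96-fold rise (adjusted p = 0.0029). Il1f8 rose 1.78-fold (adjusted p = 0.00735), a call lost without WT array 1 (adjusted p = 0.0798) and without WT array 2 (adjusted p = 0.0628). Il1f10 read 7.92 and 7.60 in K5-IKKbeta skin, against 9.24 and 9.13 in WT skin, a 2.69-fold fall (-1.43 ± 0.14, SE, adjusted p = 0.0014). The antagonist of interleukin-36, Il1f5, was not past the threshold, at 0.31 (adjusted p = 0.21). In all, 3 of 5 other ligands were higher and 1 lower, beside 14.3% and 6.64% of all genes, with a median log2 fold change of 0.83, against 0.032 over all genes.

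Of 6 other receptor genes, 3 were higher, beside 14.3% of all genes. Il18r1, the ligand-binding chain of the interleukin-18 receptor, read 8.64 and 8.41 in K5-IKKbeta skin, against 5.84 and 5.71 in WT skin, a 6.71-fold rise (2.75 ± 0.13, SE, adjusted p = 9.6e-05). The WT values lay near the floor, so the fold is rough. Sigirr, an inhibitory receptor of the family, rose 1.70-fold (adjusted p = 0.00491), and Il18rap, the accessory chain for interleukin-18, rose 1.47-fold (adjusted p = 0.0183). The Sigirr call was lost without WT array 1 (adjusted p = 0.0509) and without WT array 2 (adjusted p = 0.0679). That of Il18rap was lost without WT array 1 (adjusted p = 0.103), WT array 2 (adjusted p = 0.165) and K5-IKKbeta array 1 (adjusted p = 0.0505), and its second probe set was not past the threshold (0.26, adjusted p = 0.184). Il1rl2, the receptor of interleukin-36, fell just short, at 0.42 (adjusted p = 0.0508), and Il1rapl1 and Il1rapl2 were below the floor on all arrays.

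Most of these genes are neighbours. In the RefSeq gene table Il1f8, Il1f9, Il1f6, Il1f5, Il1f10 and Il1rn follow each other on chromosome 2 with no other protein-coding gene between them, and their log2 fold changes in that order were 0.83, 0.97, 1.09, 0.31, -1.43 and -0.61. Il1a and Il1b lie next to each other elsewhere on the same chromosome. On chromosome 1, Il1r2, Il1r1, Il1rl2, Il1rl1, Il18r1 and Il18rap follow each other, with 0.34, 0.32, 0.42, 2.75 and 0.55 for those measured. Il1f6 and Il1f10, on either side of Il1f5, were called in opposite directions.

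**Figure D4:**
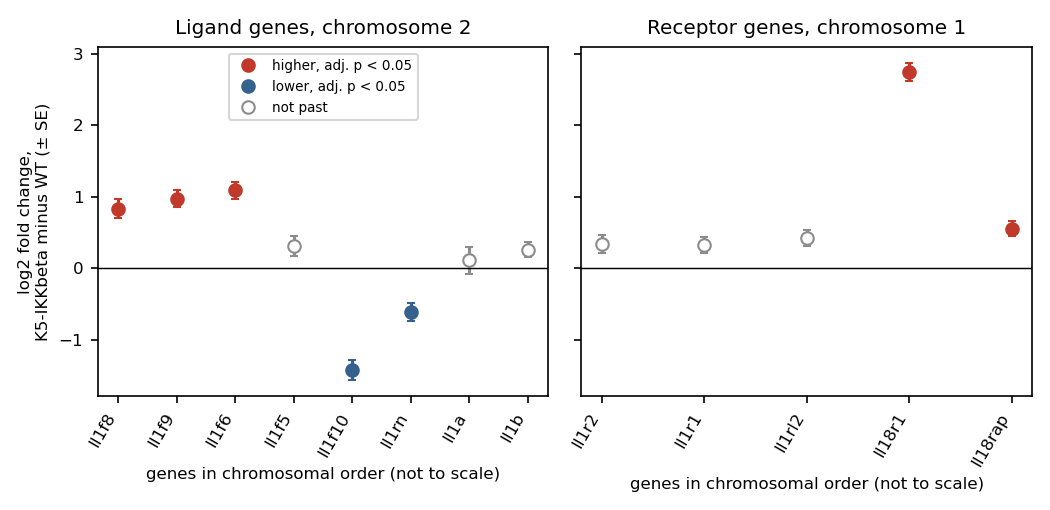
Log2 fold change (K5-IKKbeta minus WT, y axis, bars are SE) of ligand and receptor genes in chromosomal order (x axis, not to scale), filled where called. Il1f8, Il1f9 and Il1f6 lie above 0 and the neighbouring Il1f10 and Il1rn below it, and Il18r1 stands above its neighbours at 2.75.

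Proteases and inflammasome parts that act on interleukin-1 family precursors were next. Of 15 genes, 6 were higher and 1 lower, beside 14.3% and 6.64% of all genes, with a median log2 fold change of 0.31. Without WT array 2, 3 were higher. Caspase-1 (Casp1), which cuts the precursors of interleukin-1 beta and interleukin-18, read 9.03 and 9.25 in K5-IKKbeta skin, against 8.34 and 8.15 in WT skin, a 1.87-fold rise (adjusted p = 0.00605, and 0.0731 without WT array 2). Gsdmd, the pore through which the cut cytokines leave the cell, rose 1.84-fold (adjusted p = 0.00511, and 0.0601 without WT array 2). Casp4, the caspase that senses bacterial lipopolysaccharide inside cells, had a log2 fold change of 2.32, Cma1, a mast cell chymase, 1.45, and Casp8, 1.26. Ctsg, the protease cathepsin G, rose 1.68-fold (adjusted p = 0.0268), a call lost without WT array 1 (adjusted p = 0.168) and without WT array 2 (adjusted p = 0.15). Gsdma, a gasdermin of skin and hair follicle, fell 3.38-fold (adjusted p = 0.000273), and its second probe set fell too (-1.25). The sensor Nlrp3 was not past the threshold at 0.14 (adjusted p = 0.526), nor was the adaptor Pycard at 0.49 (adjusted p = 0.0553).

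Signalling genes between receptor and NF-kB came next. Of 21 genes, 2 were higher (9.52%) and 0 lower by limma, near the 14.3% higher and 6.64% lower of all genes, with a median log2 fold change of 0.15. At an unadjusted p under 0.05, 7 were higher and 1 lower, beside 29.1% of all probe sets in either direction. With the 60th percentile filter 5 were called higher and 1 lower, beside 21.6% higher and 11.3% lower of all probe sets above it. Peli1, a ubiquitin ligase of the receptor complex, was not past the threshold by its brightest probe set, but another, 1431060_at, was lower (-0.66, adjusted p = 0.0262), as was 1459398_at (-0.55, adjusted p = 0.0489). The 2 genes counted as higher were Irak3 and Tnip1. Irak3, a kinase relative that blocks signalling from the receptor complex, rose 2.30-fold (adjusted p = 0.00149). Tnip1, a partner of the NF-kB inhibitor Tnfaip3, rose 2.64-fold (adjusted p = 0.000882). The adaptor Myd88 was not past the threshold, at 0.31 (adjusted p = 0.0998), nor was Irak1, at 0.28 (adjusted p = 0.134), nor Traf6, at -0.14 (adjusted p = 0.513).

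Genes that interleukin-1 is known to induce were often higher, 15 of 28 (53.6%), with 0 lower by limma, beside 14.3% of all genes higher. The lists were chosen with earlier results of these data known, so this share is no independent test. At an unadjusted p under 0.05 the counts were 20 higher and 0 lower, beside 29.1% of all probe sets in either direction. The median log2 fold change of these 28 genes was 0.68. Many of these genes are induced by NF-kB whatever activates it. Lcn2, an iron-sequestering antimicrobial protein, read 8.76 and 8.43 in K5-IKKbeta skin, against 5.56 and 5.32 in WT skin, with a log2 fold change of 3.16. Both WT values lay barely above the floor, so the size of this difference is rough. Ccl20, a chemokine for Ccr6-bearing cells, read 9.46 and 8.89 in K5-IKKbeta skin, against 7.50 and 6.84 in WT skin, a 4.01-fold rise (adjusted p = 0.0041). Ccl2 and Icam1 had log2 fold changes of 3.13 and 3.07. Cxcl2, another of the 15, had both WT arrays below the floor and reached it on 1 K5-IKKbeta array, so no fold is given. The same held for Ptgs2 (adjusted p = 0.0062, and 0.0567 without WT array 1). Mmp13 is also counted among the 15, although it was below the floor on all arrays. Without WT array 1, 9 targets were higher. Probe sets of the neutrophil chemokine Cxcl1 disagreed. The brightest, 1441855_x_at, was not past the threshold (0.17, adjusted p = 0.452). Another, 1419209_at, had a log2 fold change of 3.21 (adjusted p = 0.00012). Both of its WT arrays lay below the floor, and against the floor it was at least 6.26-fold higher. Probe set 1457644_s_at rose 1.76-fold. Vcam1 was higher on all 3 of its probe sets, but by unequal amounts. Its log2 fold change was 1.37 by the brightest, 4.28 by 1448162_at and 2.27 by 1415989_at. The WT values of 1448162_at, 5.63 and 5.75, lay near the floor, so its size is rough. Il6 was below the floor on all arrays. Of the 31 calls in the 5 lists of other pathway genes, 12 were lost in at least 1 fit that left out an array, 6 of them among these targets.

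**Figure D5:**
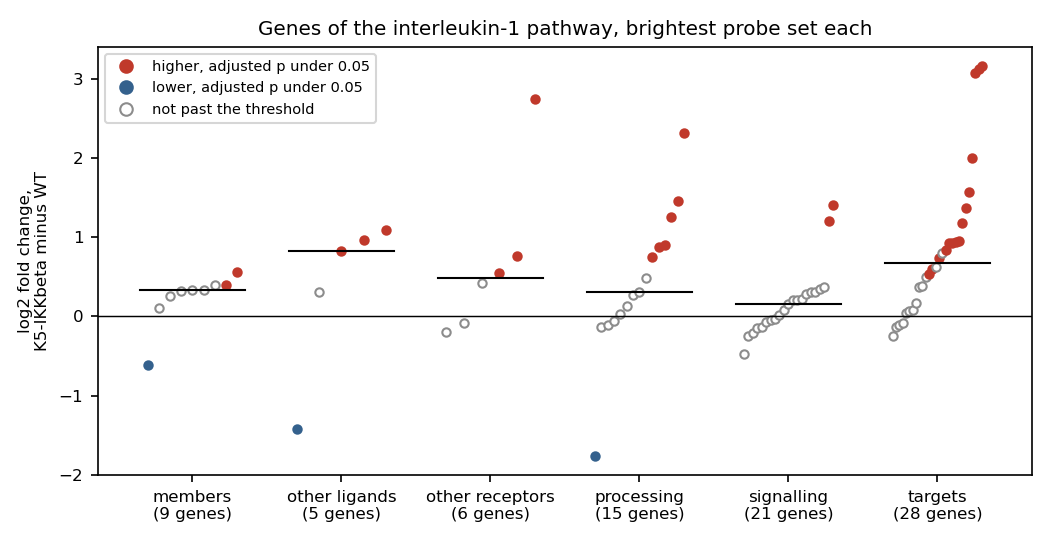
Log2 fold change (K5-IKKbeta minus WT, y axis) of each gene by its brightest probe set for the members and 5 lists of other interleukin-1 pathway genes (x axis), with list medians as lines. The members lie between -0.61 and 0.56, while targets reach 3.16 and signalling genes cluster near 0 with a median of 0.15.

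Markers of cell types that skin can hold were read in the same way, and in these whole-skin pools they measure RNA and not cells. Their counts stand beside 14.3% of all genes higher and 6.64% lower. Of 10 macrophage markers 9 were higher, led by Mpeg1 (3.62-fold), Aif1 (3.53-fold) and Lyz2 (2.79-fold), and their summed linear signal was 12401 to 13330 in K5-IKKbeta skin, against 5253 to 5639 in WT skin. Of 10 neutrophil markers 1 was higher, a share below that of all genes: S100a9, which keratinocytes also make (5.49-fold). The neutrophil sums were 2088 to 2335 in K5-IKKbeta skin, against 1662 to 1730 in WT skin. Without S100a9 the sums overlapped, at 1562 to 1720 in K5-IKKbeta skin, against 1559 to 1625 in WT skin. Most of these remaining sums came from S100a8, which was not past the threshold (0.056, adjusted p = 0.821). Of 9 mast cell markers 6 were higher (sums 4457 to 5917 in K5-IKKbeta skin, against 2185 to 2421 in WT skin), among them Mcpt4, Cpa3 and Cma1, while the receptor chain Fcer1a was below the floor. Kit leaned the other way without passing the threshold (-0.42, adjusted p = 0.142), and Tpsab1 had a log2 fold change of 0.0018. The lists also held 5 higher of 11 for T and innate lymphoid cells (Il7r, Thy1 and Rora leading, Foxp3 and Il5 below the floor, sums 6066 to 6575 in K5-IKKbeta skin, against 3417 to 3446 in WT skin). Most of these sums came from Thy1, Rora and Gata3, and Gata3 is also in the inner root sheath list. Cd3d and Cd3g were called higher, whereas Cd3e and Cd2 were not (adjusted p = 0.172 and 0.105). For dendritic and Langerhans cells 5 of 10 were higher (Itgax, Cd207 and Clec10a leading, sums 4805 to 5486 in K5-IKKbeta skin, against 4221 to 4254 in WT skin). The largest part of these sums came from Epcam, which leaned lower without passing the threshold (-0.32, adjusted p = 0.141). For endothelial cells the count was 5 of 9 (Vwf, Pecam1 and Plvap leading, sums 3431 to 3499 in K5-IKKbeta skin, against 2185 to 2268 in WT skin).

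Markers of keratinocytes, hair follicle, dermis and sebaceous gland were read likewise. All 11 hair shaft genes were lower in K5-IKKbeta skin (Krt86, Krt34 and Krt33a with the largest differences, sums 3636 to 5301 in K5-IKKbeta skin, against 114649 to 117198 in WT skin), as were 7 of 8 inner root sheath genes (sums 18701 to 28710 in K5-IKKbeta skin, against 102864 to 103618 in WT skin). Il1rn (1.53-fold), Il1f10 (2.69-fold) and Gsdma (3.38-fold) were also lower, and a link of these differences to those of the hair genes was not tested. Of suprabasal keratinocyte genes 5 were higher and 2 lower of 7, with Krt1 higher and Ivl and Dsg1a lower (sums 67558 to 81278 in K5-IKKbeta skin, against 46051 to 47176 in WT skin). Of basal keratinocyte genes 3 of 8 were higher (sums 41389 to 50031 in K5-IKKbeta skin, against 32595 to 33871 in WT skin), of fibroblast genes 4 of 8 (sums 88678 to 99391 in K5-IKKbeta skin, against 70352 to 76364 in WT skin), and of sebocyte genes 4 of 5 (sums 30072 to 32813 in K5-IKKbeta skin, against 11698 to 12159 in WT skin). Most of the fibroblast sums came from Col1a1, Col1a2 and Col3a1, none of which was called (adjusted p = 0.172, 0.231 and 0.344). The part of these cell types in the differences of interleukin-1 family genes was not tested.

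Genes whose 4 array values, centred on their mean, lay closest to those of a called member were named as a description. For Il1rn they were Slc10a6, a transporter of sulfated steroids, and Zfp750, a transcription factor of keratinocyte differentiation, at Euclidean distances of 0.021 and 0.047 on the log2 scale. For Il1rap they were Selenoi and Cenpj, at 0.020 and 0.023, and for Il18bp Zfp568 and Ier5l, at 0.014 and 0.017. With 4 arrays such closeness is common: of 15382 genes compared, 257 lay within 0.2 of Il1rn, 596 of Il1rap and 1572 of Il18bp.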

How the data were processed

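Total RNA from 4 skin pools was purified by Trizol and RNeasy columns and labelled as biotin cRNA, per the labels' protocols. The log2 values are RMA values that the authors deposited, as the submitters' processing notes name the method; the log base, the software and the genome build were not given in the sources used here, and base 2 was read from the range of 2.65 to 14.7. Scanner files were not used here.

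Probe sets were named from the platform annotation: 34958 had 1 symbol, 932 several and 9211 none, and the first alone were named. Of these, 34754 matched RefSeq (GRCm38.p6) by identifier and 0 symbols changed. Promoters are from RefSeq.

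Arrays were grouped by their labels. The test was limma 3.58.1 (R 4.3.3) on all 45101 probe sets, two-sided, with genotype alone in the model and 4.46 prior and 2 residual degrees of freedom; it was tested on simulated data. P-values rest on the spread between pools, which limma moderates with the spread of all probe sets, and not on that of 1 probe set alone. A pathway or marker gene was read from its single-symbol probe set of highest average. If neither array of one group exceeded its 25th percentile, the fold is a lower bound against that floor. Alternatives were filters at the 40th and 60th percentiles, other scalings, moderation settings, treat at 1.2-fold, the replicate number, each array left out, and gene summaries.

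Members and lists were chosen with earlier results of these data known. Named genes are all members, Ikbkb, up to 5 higher and 5 lower called genes of a pathway list with the largest change, up to 3 of a marker list, and the 2 genes closest to a called member. Outside that rule, Il1f5, Il1rl2, Il1rapl1, Il1rapl2, Nlrp3, Pycard, Ctsg, Myd88, Irak1, Traf6, Peli1, Cxcl1, Ptgs2, Mmp13, Il6, Krt5, Krt14, Col1a1, Dsg1a and the markers below the floor were named after their values were seen. The same holds for Kit, Tpsab1, Gata3, Cd3d, Cd3e, Cd3g, Cd2, Epcam, Vcam1, S100a8, Col1a2 and Col3a1.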

Additional observations from a re-analysis of the deposited data

How the results depend on the processing

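Over the alternatives, values of single member probe sets kept direction and side of the threshold in 187 comparisons, lost the call in 33, gained it in 1 and reversed in 5. The reversals were all of differences not called: Il1a 1421473_at without WT array 1 (-0.17, range without 1 array -0.17 to 0.39), and, below the floor, Il1r1 1459777_at without K5-IKKbeta array 2 (0.065, range -0.34 to 0.065), Il1rap 1439697_at without WT array 2 (-0.025) and without K5-IKKbeta array 1 (-0.087, range -0.087 to 0.22), and Il1rap 1442614_at without K5-IKKbeta array 2 (0.060, range -0.22 to 0.060). In place of 2 members called higher there was 1, Il1rap, with the 60th percentile filter, another quantile normalization, median centring, quantile normalization without hair genes, trend and robust moderation and shared-sequence endings left out. With no moderation 0 members were higher and 0 lower by limma (4 at an unadjusted p under 0.05), as were 0 and 0 pathway genes, with 11 and 8 calls over all probe sets. With treat against a 1.2-fold change 0 members were higher and 0 lower (4 unadjusted), with 2379 and 1233 calls over all probe sets. With 1 probe set per gene, a filter and p adjusted over genes, 1 member was lower, with 3056 higher and 1380 lower of all genes. With probe sets averaged by gene, 1 member was higher, Il18bp (adjusted p = 0.0248), and 1 lower, with 2732 higher and 1484 lower. Leaving out 1 array gave 0 to 1 members higher, 0 to 3 lower, 18 to 33 pathway genes higher in place of 29, and over all probe sets 1648 to 4416 higher and 840 to 2698 lower. The lowest counts came without a WT array, where the lone one is assumed to vary like the K5-IKKbeta group. The arrays share only a replicate number: deviations from group means of same-numbered arrays correlated at 0.25 over all probe sets. With the replicate number as a block 1 member was higher (Il1rap) and 2 lower (Il1rn), while Il1rn 1423017_a_at and Il18bp had adjusted p = 0.0596 and 0.0539, with 4492 higher and 2647 lower over all probe sets. The shift of agonist over antagonist stayed between 0.53 and 0.91 for Il1a and between 0.79 and 0.95 for Il1b without 1 array. With the 10th or 40th percentile as floor, 14 or 11 member probe sets lay above it on all arrays, in place of 12. Dim probe sets bound what can be said of Il6 and Cxcl2.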
